A study of Homo sapiens with 19 samples.

Results

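Expression of 10 genes of cardiac mesoderm was followed through an RNA-seq series of human H1 embryonic stem cells (hESCs) that lacked core components of Polycomb repressive complex 2 (PRC2). The genes, chosen by symbol, were NKX2-5, TBX5, HAND1, HAND2, ISL1, MEF2C, TBX20, MYH6, TNNT2 and ACTC1, which are 10 of the 33382 genes with a value in each of the 19 samples. All values are TPM, the abundance of a gene's transcripts per length, scaled to a total that all samples share. H1 is an established hESC line. WT H1 cells were sampled with 5 knockout lines, 2 samples per line. A single PRC2 gene was deleted in the EZH1-/- H1, the EED-/- H1, the EZH2-/- H1 and the SUZ12-/- H1 line, and both catalytic subunits were deleted in the EZH2-/-/EZH1-/- H1 line. The knockouts were made with CRISPR/Cas9 and a targeting vector that removed a critical domain, and the cells were kept in the hESC medium mTeSR1 on matrigel. H1-EED-/-/EED-OE cells lacked endogenous EED and carried a lentiviral EED gene driven by doxycycline (DOX). Of these there was 1 sample kept with DOX, and DOX withdrawal was followed by 1 sample on days 8, 12, 16, 20, 24 and 28. The EED-/-, SUZ12-/- and double knockout lines are called PRC2-null, and the WT, EZH1-/- and EZH2-/- lines PRC2-retaining. The labels do not say that the 2 samples of a line came from separate cultures or clones, so the p-values measure the spread between these samples, which may be technical.

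PRC2 places the repressive mark H3K27me3 on histones over silent developmental genes, and EZH1 and EZH2 are its alternative catalytic subunits. Cardiac mesoderm forms from cells of the primitive streak that respond to BMP, WNT, NODAL and FGF signals. There, transcription factors such as NKX2-5, TBX5, HAND1, HAND2, ISL1, MEF2C and TBX20 act together with GATA factors, and contractile genes such as TNNT2, ACTC1 and MYH6 are switched on as cardiomyocytes mature.

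The 10 genes are spread over 7 chromosomes, all coding for proteins (GRCh38, GENCODE release 44). NKX2-5 is at chr5:173232109-173235311, TBX5 at chr12:114353911-114408442, HAND1 at chr5:154474972-154478227, HAND2 at chr4:173524969-173530229 and MEF2C at chr5:88717117-88904257, all on the minus strand. ISL1 is at chr5:51383448-51394730 on the plus strand. TBX20 is at chr7:35202430-35254100, MYH6 at chr14:23381982-23408273, TNNT2 at chr1:201359008-201377764 and ACTC1 at chr15:34790107-34795589, again on the minus strand. The values cover all exons of a gene together, so no isoform is told apart.

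Depth per sample is unknown, since TPM carries none, and 14389 to 17043 genes per sample had a TPM of at least 1. EED was at 14.3 and 22.4 TPM in EED-/- H1 beside 17.3 and 22 in WT H1. SUZ12 was at 22.9 and 20.8 TPM in SUZ12-/- H1 beside 25.2 and 27.9, and EZH1 at 12.5 and 17.1 in EZH1-/- H1 beside 13.7 and 14.3. EZH2 was at 46.9 and 22 TPM in EZH2-/- H1 beside 54.6 and 58.9, and in the double knockout EZH2 was at 31.3 and 20 and EZH1 at 9.37 and 6.78. A gene value counts all exons and only part of each gene was removed, so these levels do not check the deletions. With DOX, the inducible cells had 109 TPM of EED.

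The 250 bases before the start of 4 of these genes are shown, from the RefSeq promoter table (GRCh38.p14), 5′ to 3′ on the gene's own strand, with CG dinucleotides in capitals. HAND1 (chr5:154478228-154478477, minus) and HAND2 (chr4:173530230-173530479, minus) are given because both were listed at 0 in all PRC2-retaining samples and differed most among the PRC2-null lines. ISL1 (chr5:51383198-51383447, plus) is given as a gene that passed the test over the days after DOX withdrawal, and MYH6 (chr14:23408274-23408523, minus) because it never reached 1 TPM.
HAND1: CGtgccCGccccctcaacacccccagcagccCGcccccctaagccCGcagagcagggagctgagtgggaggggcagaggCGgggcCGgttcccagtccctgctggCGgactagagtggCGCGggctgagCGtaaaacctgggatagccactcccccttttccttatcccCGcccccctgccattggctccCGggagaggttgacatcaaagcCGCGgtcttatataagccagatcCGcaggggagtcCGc
HAND2: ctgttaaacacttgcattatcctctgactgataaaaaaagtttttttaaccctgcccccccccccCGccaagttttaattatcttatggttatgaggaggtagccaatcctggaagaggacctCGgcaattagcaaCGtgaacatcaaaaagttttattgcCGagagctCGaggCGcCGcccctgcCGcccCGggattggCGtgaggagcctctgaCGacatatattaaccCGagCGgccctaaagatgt
ISL1: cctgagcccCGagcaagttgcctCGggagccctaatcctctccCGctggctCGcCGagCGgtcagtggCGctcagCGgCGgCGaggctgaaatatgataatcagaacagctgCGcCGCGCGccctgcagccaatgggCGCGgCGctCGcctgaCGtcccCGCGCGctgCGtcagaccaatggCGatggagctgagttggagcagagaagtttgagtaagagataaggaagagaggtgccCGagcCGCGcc
MYH6: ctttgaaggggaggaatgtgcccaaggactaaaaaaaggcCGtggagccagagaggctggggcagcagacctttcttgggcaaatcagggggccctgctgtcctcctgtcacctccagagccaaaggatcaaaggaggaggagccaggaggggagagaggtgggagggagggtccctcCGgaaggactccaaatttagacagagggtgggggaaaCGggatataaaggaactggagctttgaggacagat
The ISL1 window holds 27 CG dinucleotides, the HAND1 window 16, the HAND2 window 13 and the MYH6 window 3. The observed number over the number set by base composition was 1.02 for ISL1, 0.854 for HAND2, 0.571 for HAND1 and 0.166 for MYH6, beside a median of 0.558 over all 35114 windows of the table. The table matched 9 of the 10 genes, with 18 windows in all, since TBX5, MEF2C and ACTC1 have several starts.

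Short motifs were searched on both strands of the 250 bases. The TATA motif TATAAA was found in 2 of the 18 windows of these genes, among them MYH6, and in 10.72% of all windows. The GATA motif GATAAG was found in 4 of 18, among them HAND1, ISL1 and TNNT2, and in 5.65% of all windows. The E-box CANNTG was found in 10 of 18, with 1 match each before HAND2 and ISL1 and 4 before TNNT2, and in 61.82% of all windows. CANNTG reads the same on both strands and its free bases can overlap the other motifs, and a match is a description of the sequence only.

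In the PRC2-null lines, 9 of the 10 cardiac mesoderm genes rose over the PRC2-retaining lines, and MYH6 stayed below the level at which it could be tested. NKX2-5, HAND1, HAND2 and ISL1 went from traces or 0 to medians of 22.2 to 39.4 TPM, and ACTC1, already measurable in WT H1, reached a median of 344 TPM. Called genes had an adjusted p of at most 0.01 in limma and a difference of at least 3-fold on the log2(TPM + 1) scale, on which folds of low genes are understated. Of 19100 genes tested, 13.5% rose by this rule, and the 9 tested members did so with a median difference of 3.87 beside 0.29 over all genes. NKX2-5, TBX5, HAND1, HAND2, ISL1 and TBX20 were below 1 TPM in every PRC2-retaining sample. They passed the filter of 1 TPM in 2 or more samples only through PRC2-null samples. Here and against WT H1 they could be called only as higher, so the share of all genes is no like background for them. The p-values between the classes rest on the spread between samples of the same line. Spread between the lines of a class does not enter them. A TPM in a bulk sample cannot tell more cells of a type from more RNA per cell. The labels call all samples hESCs, but POU5F1, a factor of pluripotency, was at 2428 to 3456 TPM in the PRC2-retaining samples and at 3.62 to 150 TPM in the PRC2-null ones. The summed TPM of 5 embryonic stem cell markers, all of which fell, was 3982 to 5082 and 96.8 to 391 in the same classes, and their part in the result was not tested.

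**Figure D1:**
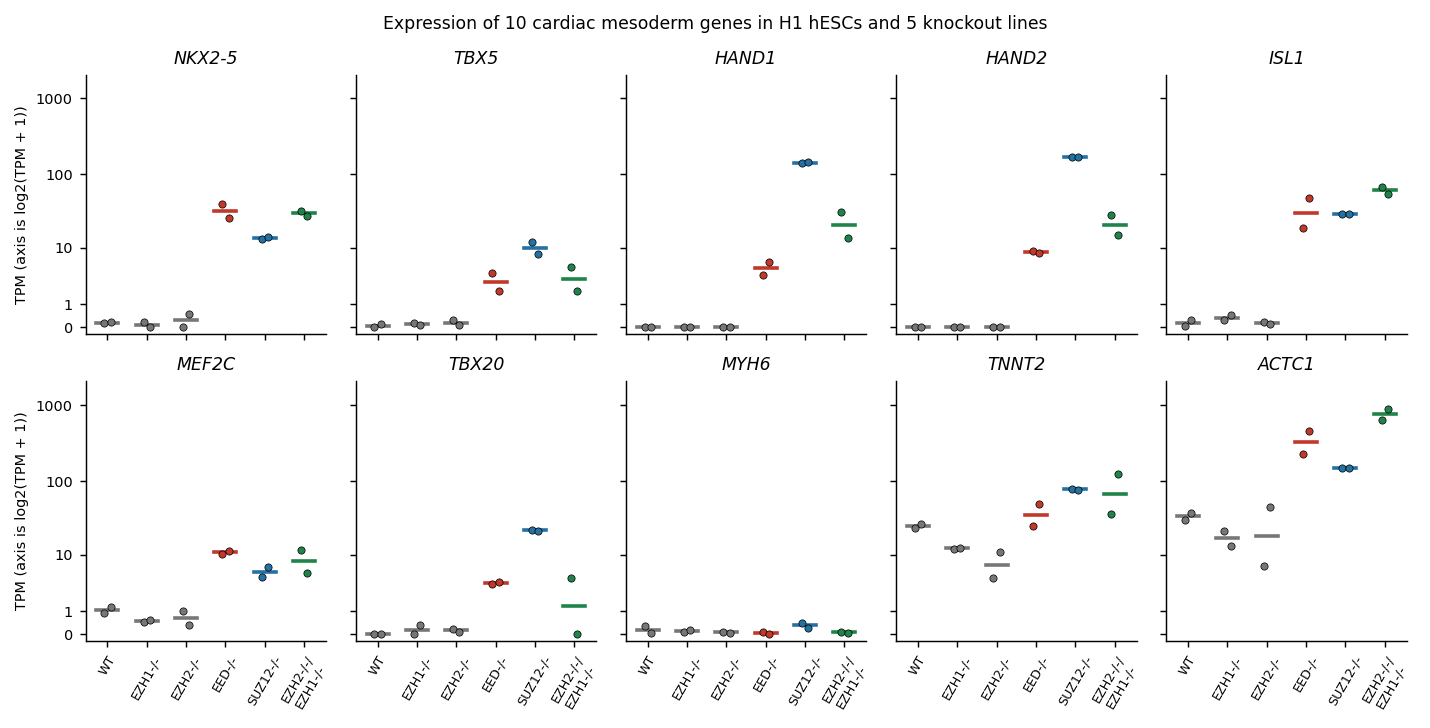
TPM of the 10 cardiac mesoderm genes on a log2(TPM + 1) axis, 1 panel per gene, with points for the 2 samples of each of the 6 lines and bars for the mean of the log2(TPM + 1) values. HAND1 and HAND2 sit at 0 in the 6 PRC2-retaining samples and above 100 TPM in both SUZ12-/- samples, while MYH6 stays below 1 TPM in all 12.

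NKX2-5, a homeobox factor of heart progenitors, was measured at 0.13 and 0.17 TPM in WT H1, 0.18 and 0 in EZH1-/- H1 and 0 and 0.51 in EZH2-/- H1. It was at 40.2 and 26.1 TPM in EED-/- H1, 13.2 and 14.4 in SUZ12-/- H1 and 32.6 and 27.7 in EZH2-/-/EZH1-/- H1. Every PRC2-null sample lay above every PRC2-retaining one, with SUZ12-/- H1 the lowest of the null lines. The difference between the classes was 4.43 on the log2 scale (SE 0.18, limma adjusted p = 7.402e-09).

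ISL1, a LIM homeobox factor of the second heart field that is also used by motor neurons, was between 0.04 and 0.44 TPM in the 6 PRC2-retaining samples. It was at 18.8 and 49.2 TPM in EED-/- H1, 29.6 and 29.3 in SUZ12-/- H1 and 68.6 and 55.1 in EZH2-/-/EZH1-/- H1. The EZH2-/-/EZH1-/- samples were the highest and the EED-/- samples spanned those of SUZ12-/- H1. The difference between the classes was 5.02 (SE 0.22, limma adjusted p = 1.438e-08).

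HAND1 and HAND2, paired basic helix-loop-helix factors of the left and right ventricle, were listed at 0 in all 6 PRC2-retaining samples. HAND1 was at 3.85 and 6.25 TPM in EED-/- H1, 139 and 147 in SUZ12-/- H1 and 31.6 and 14 in EZH2-/-/EZH1-/- H1. HAND2 was at 8.93 and 8.46 TPM in EED-/- H1, 167 and 170 in SUZ12-/- H1 and 29 and 15.4 in EZH2-/-/EZH1-/- H1. For both genes the 3 null lines were in the same order, without overlap. Against a group at 0 no fold is given. The limma adjusted p between the classes, into which the spread between lines does not enter, was 1.405e-08 for HAND1 and 3.261e-09 for HAND2.

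TBX5, a T-box factor of the first heart field and forelimb, was at most 0.25 TPM in the PRC2-retaining samples. It was at 4.08 and 2.03 TPM in EED-/- H1, 12 and 8.15 in SUZ12-/- H1 and 5.18 and 1.95 in EZH2-/-/EZH1-/- H1, and rose by 2.36 between the classes (SE 0.22, limma adjusted p = 3.631e-06). TBX20, a T-box factor of the heart chambers, was at most 0.3 TPM in the PRC2-retaining samples and was listed at 0 in both WT H1 samples. It was at 3.57 and 3.81 TPM in EED-/- H1, 22.4 and 21.4 in SUZ12-/- H1 and 4.4 and 0 in EZH2-/-/EZH1-/- H1. SUZ12-/- H1 was the highest line for both T-box genes, and the EZH2-/-/EZH1-/- samples stood on either side of detection for TBX20. Its difference between the classes was 2.54 (SE 0.33, limma adjusted p = 5.259e-05).

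MEF2C, a MADS-box factor of heart and skeletal muscle, was the factor with the highest level in undifferentiated cells, at 0.31 to 1.25 TPM in the PRC2-retaining samples. It was at 10.3 and 11.2 TPM in EED-/- H1, 4.66 and 6.46 in SUZ12-/- H1 and 11.6 and 5.35 in EZH2-/-/EZH1-/- H1. The null lines overlapped one another in part, and their class differed from the PRC2-retaining one by 2.37 (SE 0.21, limma adjusted p = 2.258e-06). Among the 10 genes, 7 had every PRC2-null sample above every PRC2-retaining one, as did 24.2% of all genes tested. Those of the 7 below 1 TPM in every PRC2-retaining sample were among the tested genes only through their PRC2-null values.

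The contractile genes TNNT2 and ACTC1 were above 20 TPM in WT H1, where all factors were at or below 1.25. ACTC1, cardiac alpha actin, was at 30.6 and 37.6 TPM in WT H1, 21.7 and 13.1 in EZH1-/- H1 and 6.84 and 45.4 in EZH2-/- H1. It was at 226 and 462 TPM in EED-/- H1, 148 and 151 in SUZ12-/- H1 and 638 and 896 in EZH2-/-/EZH1-/- H1. All PRC2-null samples exceeded all others, and the difference was 3.87 (SE 0.37, limma adjusted p = 4.693e-06).

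TNNT2, cardiac troponin T of the thin filament, was at 23.5 and 26.4 TPM in WT H1, 12.2 and 12.4 in EZH1-/- H1 and 4.39 and 10.9 in EZH2-/- H1. It was at 25.3 and 49.2 TPM in EED-/- H1, 78.4 and 77.2 in SUZ12-/- H1 and 36.5 and 122 in EZH2-/-/EZH1-/- H1. The lowest EED-/- sample fell within the range of the WT H1 samples. The difference between the classes was 2.05 (SE 0.30, limma adjusted p = 0.0001201). MYH6, the alpha myosin heavy chain of the atria, was between 0 and 0.41 TPM in the 12 samples of the lines and was not tested. Reads of ACTC1 can be shared with other actins and reads of MYH6 with MYH7, so their split is uncertain.

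**Figure D2:**
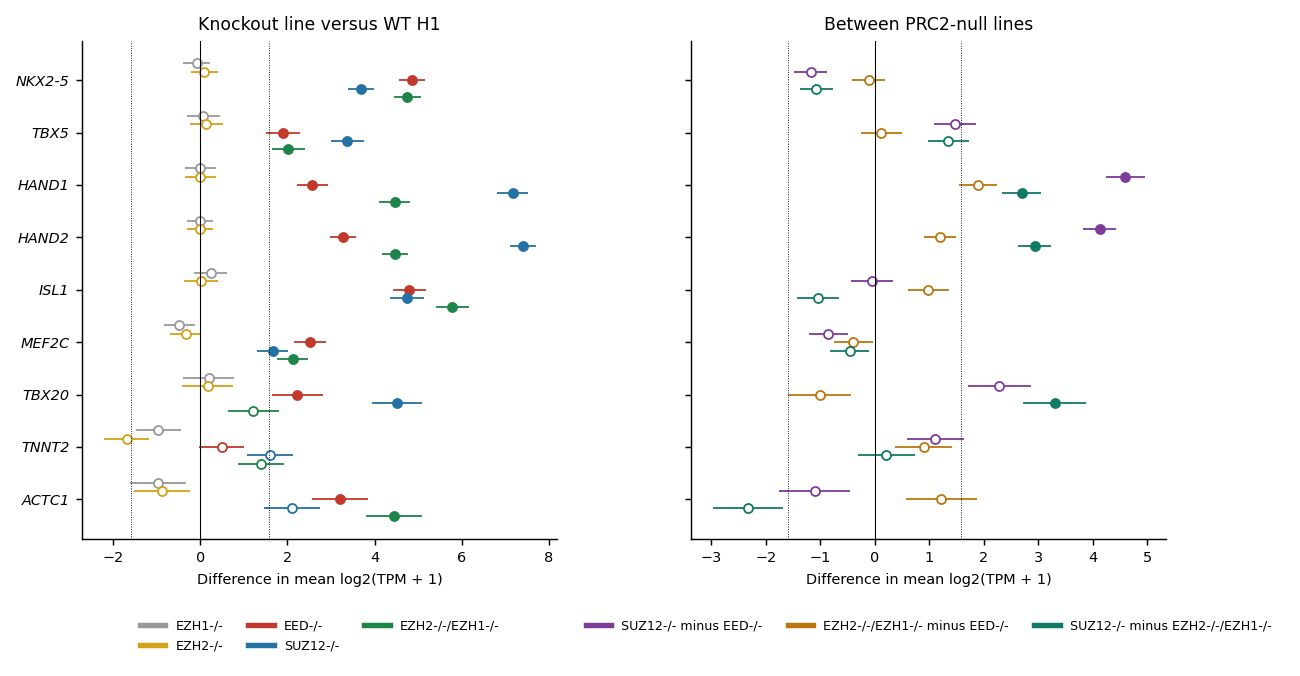
Difference in mean log2(TPM + 1) for the 9 tested cardiac mesoderm genes, with error bars of 1 SE from limma, for each knockout line minus WT H1 (left) and between the PRC2-null lines (right). Filled points are called, open points are not, dotted lines mark a 3-fold difference, and for HAND1, HAND2 and TBX20 the size against WT H1, listed at 0, depends on the pseudocount.

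Each null line was also set against WT H1, which serves as the control of all 3 comparisons. In EED-/- H1, 8 of the 9 tested genes rose, where 16.2% of all genes did. NKX2-5 differed by 4.86 (SE 0.30, limma adjusted p = 7.751e-07), and TNNT2, the exception, by 0.49 (SE 0.52, limma adjusted p = 0.4584). In SUZ12-/- H1, 7 rose (14.5% of all genes), and TNNT2 (difference 1.60, limma adjusted p = 0.02668) and ACTC1 (2.11, 0.02001) missed the adjusted p of 0.01. Both passed in a fit of this line and WT H1 alone (limma adjusted p = 6.408e-05 and 4.773e-05). In EZH2-/-/EZH1-/- H1, 7 rose (11.6% of all genes). Of these, TBX5 and MEF2C did not pass in a fit of this line and WT H1 alone (limma adjusted p = 0.03198 and 0.02962). In the fit of all lines, TBX20 (limma adjusted p = 0.1116) and TNNT2 (difference 1.39, limma adjusted p = 0.05052) did not pass. Without the EZH2-/-/EZH1-/- sample listed at 0, TBX20 passed there (limma adjusted p = 0.0001055). Leaving out either WT H1 sample took TBX5, TBX20 and ACTC1 out of the EED-/- H1 calls, which left 5.

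In neither single knockout of a catalytic subunit was a tested cardiac mesoderm gene called by this rule. In EZH1-/- H1, 0 of 9 were called in limma and 0 had an unadjusted p under 0.05, where 0.0576% of all genes rose and 0.0419% fell, and the members' adjusted p ranged from 0.4104 to 1. In EZH2-/- H1, 0 of 9 were called, as were 0% of all genes, and 1 had an unadjusted p under 0.05. This was TNNT2, with a difference of -1.69 (SE 0.52, limma adjusted p = 0.5503). NKX2-5, TBX5, HAND1, HAND2, ISL1 and TBX20 were all below 1 TPM in the 4 samples of these lines and in WT H1. On the log2(TPM + 1) scale values below 1 TPM cannot differ by 3-fold. So these genes could not have been called, and the rule says nothing on them here.

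Among the PRC2-null lines, HAND1 and HAND2 were highest in SUZ12-/- H1. HAND1 was higher in SUZ12-/- H1 than in EED-/- H1 by 4.60 (SE 0.36, limma adjusted p = 1.742e-05) and HAND2 by 4.13 (SE 0.30, limma adjusted p = 1.379e-05). They were the 2 of 9 genes called in this comparison, in which 3.54% of all genes were higher in SUZ12-/- H1. TBX20 was not called (2.29, limma adjusted p = 0.01885), nor was NKX2-5, with a difference of -1.18 (limma adjusted p = 0.02049). Over EZH2-/-/EZH1-/- H1, SUZ12-/- H1 was higher in 3 of 9 genes, where 3.32% of all genes were. These were HAND1 by 2.70 (limma adjusted p = 0.0006287), HAND2 by 2.93 (0.0001056) and TBX20 by 3.30 (SE 0.58, 0.003546). Without either SUZ12-/- sample only HAND2 of the 3 passed. In a fit of these 2 lines alone, none of the 3 passed, with limma adjusted p-values of 0.04389 to 0.1498. Leaving out 1 sample at a time moved the TBX20 difference from 2.08 to 4.52. The 2 EZH2-/-/EZH1-/- samples also lay further apart than those of other lines, with a median absolute log2 difference of 0.512 over 10103 genes beside 0.0898 in SUZ12-/- H1.

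Markers of other cell types differed between these lines too. Of 19100 genes tested, 676 were higher in SUZ12-/- H1 than in EED-/- H1 and 493 lower. Over EED-/- H1, 2 of 5 epicardial and mesothelial markers were higher in SUZ12-/- H1 and 0 lower, with sums of 37.2 to 38.9 TPM beside 13.8 to 19.2. Of 8 amnion and trophoblast markers, 2 were higher and 1 lower (389 to 400 TPM beside 313 to 449), and of 6 smooth muscle markers, 0 were higher and 2 lower (1110 to 1121 TPM beside 4152 to 4592). TCF21 of the epicardium was at 22.5 and 21.5 TPM in SUZ12-/- H1 and 4 and 4.29 in EED-/- H1, and VTCN1 of the amnion at 34.4 and 31.2 beside 2.75 and 6.46. In each list a marker went the other way. TBX18 of the epicardium was at 4 and 4.31 TPM beside 8.43 and 10.4, and KRT7 of the amnion and trophoblast at 48.9 and 55 beside 256 and 383. TNNT3, a fast skeletal troponin, was at 49.1 and 54.5 TPM beside 0.94 and 0.49. Of 4 tested skeletal muscle markers, 1 was higher and 1 lower. ACTA1, skeletal alpha actin, went against TNNT3, at 4.32 and 3.67 TPM beside 96 and 130. Among 5 embryonic stem cell markers, 3 were higher and 0 lower. TCF21, TBX18, VTCN1, KRT7, TNNT3 and ACTA1 were named for this comparison after their values were seen. The part of these cells in the HAND1 and HAND2 levels was not tested.

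Between EZH2-/-/EZH1-/- H1 and EED-/- H1, 0 of 9 genes were called in limma, with 3 at an unadjusted p under 0.05, beside 0.0314% of all genes higher and 0.0576% lower. The 3 were HAND1 (1.90, limma adjusted p = 0.04282), HAND2 (1.19, limma adjusted p = 0.0859) and ISL1 (0.99, limma adjusted p = 0.1962). Among the null lines ACTC1 was lowest in SUZ12-/- H1, where the HAND genes were highest. Its line means were 767 ± 182 TPM in EZH2-/-/EZH1-/- H1, 344 ± 167 in EED-/- H1 and 150 ± 1.90 in SUZ12-/- H1 (SD, n = 2 each). Its difference between SUZ12-/- and EZH2-/-/EZH1-/- H1 was -2.33 and was not called (limma adjusted p = 0.03563).

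HAND2-AS1, transcribed from the opposite strand next to HAND2, was at 60.2 and 63 TPM in SUZ12-/- H1, 5.17 and 2.41 in EED-/- H1 and 7.53 and 3.24 in EZH2-/-/EZH1-/- H1. The libraries do not mark strand, so reads of HAND2 and its antisense partner, and of TBX5 and TBX5-AS1, cannot be told apart where they overlap. HAND2-AS1 and TBX5-AS1 are named here after their values were seen. Among the 17 paralogs and antisense partners of the members, 9 of 16 tested rose between the classes and 1 fell. Over all genes, 13.5% rose and 5.09% fell. ACTA2, smooth muscle actin, went from at most 4.25 TPM in the PRC2-retaining samples to 326 to 1218 TPM in the PRC2-null ones, above ACTC1 in each of these 6 samples.

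Other cardiac transcription factors and cofactors rose in part. Of 24, 23 were tested, 15 rose between the classes, 0 fell and 8 were not called, with a median difference of 2.73 beside 0.29 over all genes. The shares of all genes were 13.5% up and 5.09% down. GATA4, a zinc-finger partner of NKX2-5 and TBX5, was between 68.7 and 124 TPM in the PRC2-null samples and at most 0.75 in the others. TBX3, a factor of the conduction system, was at 33.1 to 80 TPM beside at most 0.24. The list shares TBX2, TBX3, MEF2A and MEF2D with the paralogs. Of 12 inductive signals, all tested, 10 rose, with a median of 3.53. BMP4, a ligand that induces mesoderm, was at 92.5 to 293 TPM in PRC2-null samples and 2.5 to 13.4 in the others, and the WNT inhibitor DKK1 at 75.3 to 310 TPM beside at most 0.67.

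Contractile and calcium-handling genes of the cardiomyocyte moved in both directions. Of 20 such genes, 15 were tested, 7 rose and 1 fell, where 13.5% of all genes rose and 5.09% fell, with a median of 0.84 beside 0.29 over all genes. NPPB, which codes for B-type natriuretic peptide, was at 247 and 438 TPM in EED-/- H1, 634 and 742 in EZH2-/-/EZH1-/- H1 but 16.8 and 14.4 in SUZ12-/- H1. MYL7, atrial myosin light chain, was at 210 and 375 TPM, 371 and 579, and 14.5 and 9.46 in the same lines. In both genes SUZ12-/- H1 was the lowest null line, while it was the highest for HAND1 and HAND2. TNNI3, cardiac troponin I, fell by 4.02 (SE 0.15, limma adjusted p = 5.371e-09), from 49.5 to 102 TPM in the PRC2-retaining samples to 2.12 to 5.4. MYH7, MYL2, MYBPC3 and CASQ2 were below 1 TPM in every sample of the lines, and NPPA was at most 1.8 TPM. Of 9 cardiomyocyte markers, 6 were tested, 2 rose and 1 fell, with a median difference of 0.14 beside 0.29 over all genes. Their summed TPM was 85.3 to 121 in the PRC2-retaining samples and 94.5 to 711 in the PRC2-null ones. This list holds the members TNNT2 and MYH6, and MYL7 alone gave 579 TPM of the highest sum. MYL7 was at 0.49 to 13.9 TPM in the PRC2-retaining samples, a range that SUZ12-/- H1 overlapped.

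**Figure D3:**
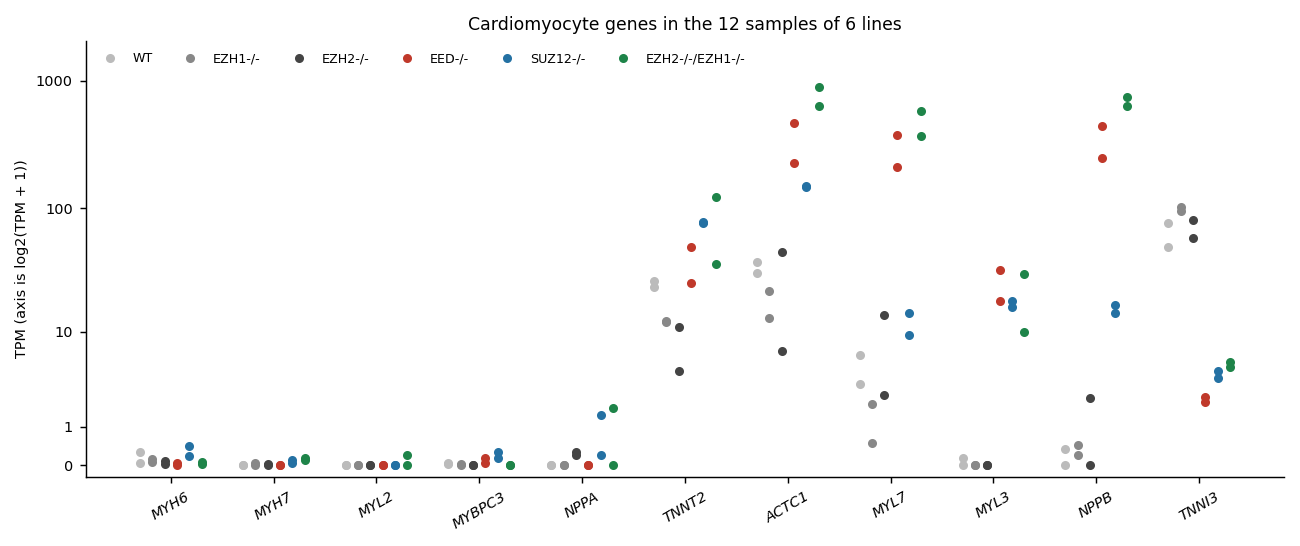
TPM of contractile and other cardiomyocyte genes on a log2(TPM + 1) axis, with a point for each of the 12 samples of the 6 lines. MYL7 and NPPB are lowest among the PRC2-null lines in SUZ12-/- H1, TNNI3 is lower in all PRC2-null samples, and MYH6 and MYH7 stay near 0.

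Other cell types share members of this list, so their markers are given beside it. Over all genes tested, 13.5% rose between the classes and 5.09% fell. Smooth muscle markers summed to 208 to 621 TPM in the PRC2-retaining samples and 1110 to 5366 in the PRC2-null ones, and 4 of 6 rose. Amnion and trophoblast markers, of cells that also use HAND1, ISL1 and GATA3, had 7 of 8 up and 1 down. Their sums were 182 to 460 TPM and 216 to 449 TPM. GABRP, the marker that fell, was at 167 to 445 TPM in the PRC2-retaining samples and 2.23 to 238 in the PRC2-null ones. CDX2, CGA, GATA3, TFAP2A, TP63 and VTCN1 were below 1 TPM in every PRC2-retaining sample. Endothelial markers had 4 of 6 up (46 to 145 TPM and 63.3 to 522 TPM). Of 7 markers of neurons with ISL1 or HAND2, 2 were tested and 1, MNX1, rose, while LHX3 and TH stayed below 1 TPM. The skeletal muscle factors MYOD1, MYF5, MYOG and MYF6 stayed below 1 TPM, and 1 of 4 tested markers of this type rose. Epicardial and mesothelial markers had 2 of 5 up and 0 down. UPK3B, not called, was at 1.71 to 12.9 TPM in the PRC2-retaining samples and 0.55 to 6.2 in the PRC2-null ones. Counts from few tested genes, such as 1 of 4, cannot be told from the shares of all genes. The part of these cell types in the members' levels was not tested.

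After DOX withdrawal the genes were highest on different days, and the time points hold 1 sample each. The title of the DOX sample carries the day of the last withdrawal sample, so its time in culture beside the earlier days is unclear. With DOX, the H1-EED-/-/EED-OE cells had 27 TPM of ACTC1 and 24.4 of TNNT2, and the other 8 genes were at most 0.69 TPM. TBX5 led, at 10.7 TPM on day 8, 36.1 on day 12 and 11.8 on day 16, and it was at 3.66, 4.51 and 4.03 TPM on days 20, 24 and 28. Its antisense partner TBX5-AS1 was at 10.4 TPM on day 12. HAND1 was at 0.37, 0.41 and 1.07 TPM up to day 16, then 470 TPM on day 20, 122 on day 24 and 11.1 on day 28. HAND2 was at most 0.81 TPM up to day 16, 16.9 on day 20, 101 on day 24 and 17.9 on day 28. So both HAND genes passed through a peak, HAND1 on day 20 and HAND2 on day 24.

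NKX2-5 was at 0.76, 1.18, 2.72, 10.1, 38.1 and 32.4 TPM on days 8, 12, 16, 20, 24 and 28. ISL1 was at 0.13, 0.38, 0.64, 14.3, 31.3 and 30.7 TPM on the same days. TBX20 reached 6.59 TPM on day 20 and 13.8 on day 24 and was at 3.54 on day 28. NKX2-5 and ISL1 stayed near their highest level on day 28, while TBX20 was lower than on day 24. MEF2C was at most 1.4 TPM up to day 20 and at 21.3 and 22.6 TPM on days 24 and 28.

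ACTC1 was at 11.4, 12.8 and 5.3 TPM on days 8, 12 and 16, below its level with DOX, then 55.9 on day 20, 1616 on day 24 and 264 on day 28. TNNT2 was at 31.2, 7.21, 1.74 and 2.4 TPM on days 8, 12, 16 and 20 and at 25.3 and 43.8 TPM on days 24 and 28. Both contractile genes were lowest on day 16, and ACTC1 was highest on day 24 and TNNT2 on day 28. MYH6 was at most 0.59 TPM, on day 20.

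**Figure D4:**
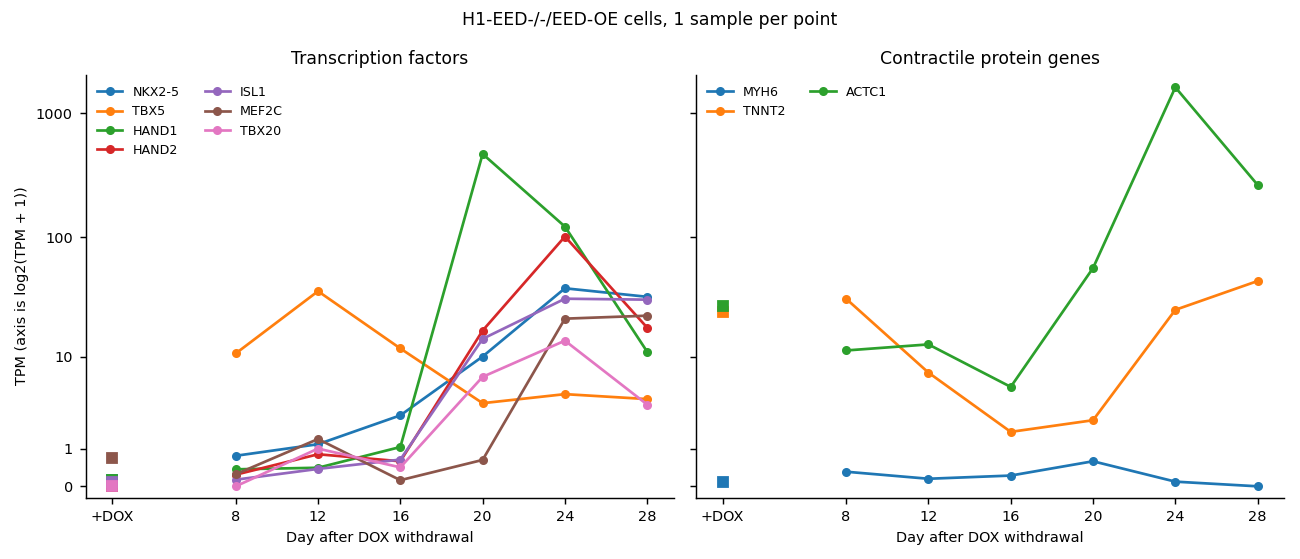
TPM of the 10 cardiac mesoderm genes on a log2(TPM + 1) axis in H1-EED-/-/EED-OE cells, with a square for the sample with DOX and a line through the samples at days 8 to 28 after DOX withdrawal, 1 sample each. TBX5 peaks on day 12, HAND1 on day 20 and ACTC1, HAND2 and TBX20 on day 24.

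By a 3-fold difference from the DOX sample on the log2(TPM + 1) scale, with no test, 1 of the 9 genes was higher on day 8 (2.93% of 17245 genes), 1 on day 12 (3.08%), 2 on day 16 (4.13%), 6 on day 20 (9.62%), 8 on day 24 (13.9%) and 8 on day 28 (18.8%). The 2 on day 16 were TBX5 and NKX2-5. TNNT2 was lower on days 12, 16 and 20 and ACTC1 on day 16. On days 12, 16 and 20, in turn, 0.4%, 0.939% and 2.91% of all genes were lower. A slope over the 6 days was tested in limma for 17099 genes, of which 1.36% rose with a change of at least 3-fold from day 8 to day 28. NKX2-5 (5.04, SE 0.62, limma adjusted p = 0.008351) and ISL1 (5.85, SE 0.88, limma adjusted p = 0.009964) were the 2 of 9 genes that passed. The ISL1 call was lost when any 1 of the 6 days was left out, and the NKX2-5 call when any day but day 20 was. ACTC1 (6.56, limma adjusted p = 0.04691), HAND2 (5.80, 0.03197) and MEF2C (4.48, 0.04233) did not pass, nor did HAND1 (6.12, 0.1542) and TBX5 (-2.26, 0.09319), whose levels peaked inside the course.

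Of the 12 inductive signals, 4 were highest on day 16, 2 on day 20, 4 on day 24 and 2 on day 28. NODAL, CER1 and FGF8, signals of the primitive streak and anterior mesendoderm, were at 276, 442 and 160 TPM on day 16, when HAND2, ISL1, MEF2C and TBX20 were below 1 TPM. MESP1, the first factor of cardiac progenitors, was at 46.1 TPM on day 20 and at most 0.67 TPM on the other days. These 4 genes were picked for their time pattern after their values were seen. GATA4 was at 3.67, 17.7, 51.3, 137, 203 and 213 TPM from day 8 to day 28. The pluripotency factor POU5F1 was at 3356 TPM on day 16, 1580 on day 20 and 46.2 on day 24. From day 16 to day 20, SOX2 went from 94.4 to 2.48 TPM and NANOG from 184 to 42.4. DPPA4 went from 499 to 134 TPM and LIN28A from 580 to 512 between the same days. So the HAND1 maximum came in a sample in which POU5F1 and LIN28A were still high and SOX2 was low.

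At day 28 the course ended near the EED-/- H1 line for some members, which is a comparison of 1 sample with 2. NKX2-5 was at 32.4 TPM beside 40.2 and 26.1, ISL1 at 30.7 beside 18.8 and 49.2, and ACTC1 at 264 beside 226 and 462. HAND1 was at 11.1 TPM beside 3.85 and 6.25, HAND2 at 17.9 beside 8.93 and 8.46, and MEF2C at 22.6 beside 10.3 and 11.2. The first 3 genes lay within the EED-/- range and the last 3 above it.

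The genes whose values over the 19 samples were most like each member are given by Pearson's r of log2(TPM + 1), as a description, since samples of a line and of the course are not independent. For NKX2-5 they were PLK2 (r = 0.991) and FLRT2 (0.989), for ISL1 S100A10 (0.985) and IHH (0.984), and for HAND2 HTR1E (0.984) and FOXF1 (0.981). For HAND1 they were NPY (0.955) and GATA3-AS1 (0.954), and for TBX20 CD68 (0.961) and UGT2B11 (0.955). TBX5 was most like its antisense partner TBX5-AS1 (0.965), then DLX4 (0.897). MEF2C was most like PLVAP (0.965) and FLT1 (0.965), ACTC1 like OST4 (0.936) and TAGLN (0.934), and TNNT2 like KCNN2 (0.885) and APOE (0.858).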

How the data were processed

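RNA was sequenced by the authors from TruSeq RNA libraries, which do not mark strand, and mapped with Bowtie2 and RSEM to an mRNA reference on GRCh38. Per the labels the tools were Bowtie and RSEM. The authors deposited a TPM for 33382 genes in each of 19 samples. Depth is unknown, so precision rests on the replicates. The study ran edgeR on counts, which TPM does not allow, so limma 3.58.1 in R 4.3.3 (trend and robust options) was fitted to log2(TPM + 1) with a mean per line, for the 19100 genes that reached 1 TPM in 2 or more of the 12 line samples, leaving 6 residual degrees of freedom. The slope over days used 17099 genes. P-values were adjusted by Benjamini-Hochberg over all genes of a comparison, and the study's thresholds (FDR of 1%, fold of 3) were kept. The fit was tested on simulated data, with changes put only into genes well above 0 TPM. Members near 0 in WT H1 are not covered by it. The members and gene lists were chosen with earlier results of these data known. Named beside the members were, per list, up to 4 called genes with the largest difference and markers near 0, and, per member, the 2 genes most like it. Alternatives were another pseudocount, no filter, scaling by median ratios, a replicate block, other options of limma, fits of fewer groups, other thresholds and leaving out samples. Some genes that this rule names are not reported here.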

Additional observations from a re-analysis of the deposited data

Results flagged for a closer look

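Lines of the same class differed from one another for 3 of the cardiac mesoderm genes, each by a limma contrast of the difference itself. HAND1 was higher in SUZ12-/- H1 than in EED-/- H1 by 4.60 on the log2(TPM + 1) scale, and HAND2 by 4.13. Over EZH2-/-/EZH1-/- H1, SUZ12-/- H1 was higher by 2.70 for HAND1, by 2.93 for HAND2 and by 3.30 for TBX20, which was listed at 0 in 1 of the EZH2-/-/EZH1-/- samples and ranged from 2.08 to 4.52 with 1 sample left out. Each of these lines has 2 samples. In the 18 groups of 6 samples, no single sample lay far from the others by Dixon's ratio. Each group pooled lines that differ, which widens its range, so the ratio cannot show a sample unlike its own line.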

How the results depend on the processing

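The 9 genes that rose between the classes did so under each of the 17 alternatives run for that comparison, with a highest adjusted p of 0.0009969. Leaving out 1 sample at a time, with a lone sample assumed to vary like the other groups, gave 5 to 8 called genes in EED-/- H1 over WT H1, 0 to 1 between EZH2-/-/EZH1-/- and EED-/- H1, and 1 to 4 between SUZ12-/- and EZH2-/-/EZH1-/- H1. Leaving out 1 day gave 0 to 1 in the slope over days. No share of all genes stands beside these counts or those in the next sentence. They are not read as a change particular to the members. In EED-/- H1 over WT H1 the number of all genes called moved with the sample left out too. The slope called 0 with no filter, 1 with the DOX sample, whose time in culture is unclear, as day 0 and 0 with plain eBayes. At an adjusted p of 0.05 and no fold minimum it called 5 (12.4% of all genes rose), SUZ12-/- against EED-/- H1 called 5 (9.2% higher, 10.4% lower), EZH2-/-/EZH1-/- against EED-/- H1 called 1 (0.23% and 0.565%) and SUZ12-/- against EZH2-/-/EZH1-/- H1 called 6 (8.4% and 5.88%), a comparison with 0 calls when fitted alone. With a pseudocount of 0.1, 3 genes passed 3-fold on day 8, all higher, 5 on day 12 (4 higher, 1 lower) and 9 on day 16 (6 higher, 3 lower). At this pseudocount changes between values under 1 TPM pass, such as HAND2 from 0 with DOX to 0.59 TPM on day 16. No share of all genes stands beside these counts, so they are not read as a response of the genes. No difference that was called changed direction. Among those not called, scaling by median ratios turned ISL1 between SUZ12-/- and EED-/- H1 to 0.15 and NKX2-5 between EZH2-/-/EZH1-/- and EED-/- H1 to 0.13. Leaving out samples gave -2.15 to 0.41 for ACTC1 in EZH2-/- H1 over WT H1 and -0.72 to 0.62 for ISL1 between SUZ12-/- and EED-/- H1. Between EZH2-/-/EZH1-/- and EED-/- H1 it gave -0.41 to 0.20 for NKX2-5, -0.41 to 0.66 for TBX5, -0.89 to 0.10 for MEF2C and -2.23 to 0.20 for TBX20. Between SUZ12-/- and EZH2-/-/EZH1-/- H1 it gave -0.96 to 0.033 for MEF2C and -0.65 to 1.07 for TNNT2. The cause was not tested. Scaling moved the median of all genes between the classes from 0.29 to 0.08, and the share of calls that were up from 72.7% to 58% in EED-/- H1 over WT H1 and from 57.8% to 70% in SUZ12-/- over EED-/- H1. Sample numbers did not pair the lines (correlations of -0.12 to 0.22 over 15 pairs of lines). The replicate block raised the SUZ12-/- H1 count over WT H1 from 7 to 8, with TNNT2 at an adjusted p of 0.007693.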
